A study of Mus musculus with 12 samples.

Results

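Oxidative phosphorylation is carried out by protein complexes of the inner mitochondrial membrane whose subunits are made in 2 places, and the messenger RNAs of both sets were followed here in mouse embryos with a hypomorphic Rpl10a allele. Members were found by symbol among the rows of the count table: 56 of 22467 rows, of which 13 are the mRNAs carried by the mitochondrial genome and 43 are nuclear genes for subunits of complexes I to V. The choice was made with earlier results of these data known, namely a rise of mt-Co2 and mt-Co3 in ribosome-protected fragments relative to RNA in mutant embryos, so every genotype difference given for the 13 mitochondrial mRNAs, and for the nuclear subunits set against them, is a description and not an independent test. A member was tested where its level exceeded 0.75 CPM, counts scaled to the same library total, in at least 3 ribosome footprint libraries. This filter kept all 13 mitochondrial and 42 of the 43 nuclear members among 12576 transcripts, and the exception was Cox7c.

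The 12 libraries came from 6 whole single embryos at embryonic day 8.5, 3 wild type (Rpl10a +/+, WT) and 3 homozygous for a loss-of-function allele (Rpl10a LOF/LOF, LOF) on a C57BL/6 background. Both groups were dissected and lysed in cycloheximide, an inhibitor that stalls cytosolic but not mitochondrial ribosomes, and its part in the RPF levels of the 2 genomes was not tested. RPL10A is the ribosomal protein uL1 of the large cytosolic subunit, and the CRISPR-made LOF allele yields a protein extended at its N terminus that still enters ribosomes. The paper classes the allele as hypomorphic because it failed to complement null and deletion alleles in crosses. Each embryo gave 1 library of ribosome-protected fragments (RPF) and 1 of fragmented total RNA depleted of rRNA (RNA). Embryos came from several litters and were whole, so that a change in the share of a cell type and a change in RNA per cell cannot be told apart. Totals were 7041357 to 10863499 counts for RPF and 9132521 to 26561843 for RNA.

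As background, the mitochondrial genome is a small circle transcribed as long polycistronic RNAs that are cut at the tRNAs between the genes. Its mRNAs are translated inside the organelle by mitochondrial ribosomes, which are built from their own rRNAs and nuclear-encoded proteins and do not contain RPL10A. Nuclear subunits are translated by cytosolic ribosomes and imported. Complex I (NADH dehydrogenase), complex III (cytochrome bc1), complex IV (cytochrome c oxidase) and complex V (ATP synthase) hold subunits of both origins, while complex II (succinate dehydrogenase) is wholly nuclear-encoded.

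The 13 mitochondrial mRNAs are single-exon genes that start at the first base of their coding sequence in the GENCODE annotation of GRCm38. The annotation thus gives them no 5' untranslated region, but it lists each gene alone, also where frames share a single mRNA. Of them, 9 carry ATG at that place, and the other 4 carry GTG, ATA, ATT or ATC. The first 30 bases are shown 5' to 3' for these 4 and for mt-Co1, as an ATG-starting comparison, with the start codon in capitals. They lie on the plus strand of the mitochondrial chromosome at chrM:2751-2780, chrM:3914-3943, chrM:9459-9488, chrM:11742-11771 and chrM:5328-5357.
mt-Nd1: GTGttctttattaatatcctaacactcctc
mt-Nd2: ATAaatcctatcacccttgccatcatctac
mt-Nd3: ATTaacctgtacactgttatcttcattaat
mt-Nd5: ATCaatattttcacaacctcaatcttatta
mt-Co1: ATGttcattaatcgttgattattctcaacc

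In 2 places neighbouring reading frames share several bases on a single mRNA, and fragments from the shared bases cannot be assigned to either gene with certainty. The end of mt-Atp8 (chrM:7766-7969) overlaps the start of mt-Atp6 (chrM:7927-8607) by 43 bases, and mt-Nd4l (chrM:9877-10173) overlaps mt-Nd4 (chrM:10167-11544) by 7 bases. The annotated end of mt-Atp6 and start of mt-Co3 also share 1 base, at position 8607. The first 2 junctions are shown on the plus strand, at chrM:7912-7984 and chrM:10152-10188, with the shared bases in capitals.
mt-Atp8 and mt-Atp6: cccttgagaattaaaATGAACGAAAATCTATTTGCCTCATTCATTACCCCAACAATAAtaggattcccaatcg
mt-Nd4l and mt-Nd4: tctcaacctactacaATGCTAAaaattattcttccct
RPF were counted without the first 15 and the last 5 codons of each coding sequence, so footprints on the shared bases did not enter mt-Atp6 or mt-Nd4. In mt-Atp8 the last 5 codons cover only part of the 43 shared bases, and footprints on the rest can count toward mt-Atp8. The other mitochondrial mRNAs are mt-Co2 (chrM:7013-7696), mt-Co3 (chrM:8607-9390), mt-Cytb (chrM:14145-15288) and mt-Nd6 (chrM:13552-14070), and mt-Nd6 alone is encoded on the minus strand. Coding sequences of the 13 held 32.3% to 41.5% G and C, below the 42.9% to 65.2% of the nuclear members.

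The 13 mitochondrial mRNAs together took a larger share of the RPF counts in LOF than in WT embryos, and no larger share of the RNA counts. In WT the share of RPF counts was 0.323% (0.320 to 0.327), 0.251% (0.248 to 0.255) and 0.227% (0.224 to 0.230) in replicates 1, 2 and 3, and in LOF it was 0.331% (0.327 to 0.336), 0.377% (0.373 to 0.381) and 0.507% (0.503 to 0.512), with 95% Wilson intervals that cover counting error only. The means were 0.267% ± 0.0499 and 0.405% ± 0.0913 (SD, n = 3 embryos each), a ratio of 1.52. WT replicate 1 and LOF replicate 1 lay side by side, and LOF replicate 3 stood highest.

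In the RNA libraries the same mRNAs took 1.83%, 1.48% and 1.77% of counts in WT and 1.59%, 1.68% and 1.39% in LOF, and the genotypes overlapped. The ratio of the LOF to the WT mean was 0.917. The 43 nuclear members took 0.964% ± 0.00862 of RPF counts in WT and 0.974% ± 0.0213 in LOF, and 0.594% ± 0.0222 and 0.594% ± 0.0157 of RNA counts (SD, n = 3). Their summed share overlapped between genotypes in both kinds of library.

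**Figure D1:**
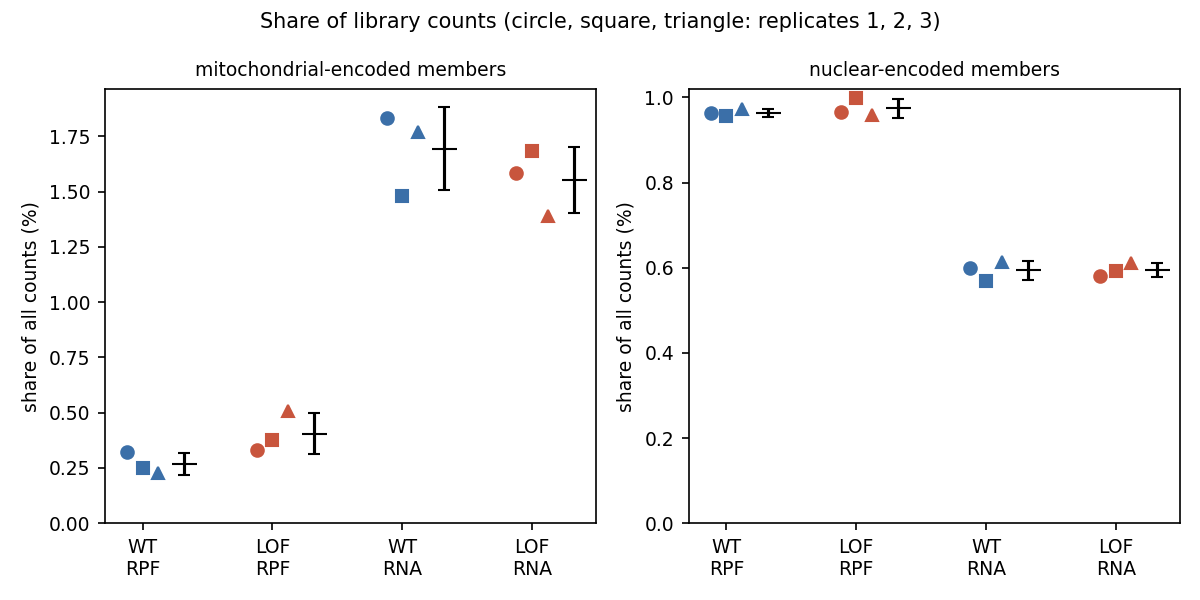
Share of all counts of a library (%, linear axis from 0) taken by the 13 mitochondrial-encoded members (left) and the 43 nuclear-encoded members (right) in each embryo, with the mean ± SD of 3 embryos in black (blue, WT; red, LOF). The mitochondrial share of RPF averages 0.267% in WT and 0.405% in LOF, while the nuclear shares and both RNA shares overlap between genotypes.

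Gene by gene, all 13 mitochondrial mRNAs had a higher mean RPF level in LOF, with log2 fold changes from 0.15 to 0.69 and a median of 0.63, against a median of 0.0036 over all 12576 transcripts. At an FDR below 0.1 in edgeR's quasi-likelihood test over the whole table, 7 of the 13 were called higher, where 1.05% of all transcripts were, and adjusted p ranged from 0.057 to 0.794. DESeq2 called 4 of them higher (1% of all transcripts) and edgeR without the filter 11 (0.832% of 22122 transcripts). A replicate block in edgeR called 11 (1.11%), but it pairs WT and LOF embryos that share only a number. With the summed level of Y-linked genes as a covariate none was called (0.143%). Leaving out 1 embryo gave 0 to 11 calls, listed below with their shares. In 10 of the 13 every LOF embryo lay above every WT embryo, which held for 9.98% of all transcripts. The 13 share an organelle and the same 6 libraries, and all but mt-Nd6 come from transcription of the same strand, so they are not 13 separate observations.

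Complex IV holds the catalytic core that reduces oxygen, made of 3 mitochondrial products. RPF of mt-Co1, the subunit that carries the oxygen-binding haem and copper, stood at 743, 609 and 532 normalised CPM (with TMM scaling of library sizes) in WT replicates 1 to 3 and at 758, 935 and 1265 in LOF. For mt-Co2, which takes electrons from cytochrome c, the WT values were 274, 216 and 207 and the LOF values 298, 359 and 419. RPF of mt-Co3, a structural core subunit, measured 307, 259 and 240.0 in WT and 350.2, 376 and 489.9 in LOF. In all 3 the lowest LOF embryo was above the highest WT embryo, by little in mt-Co1, and LOF replicate 3 was the highest of all. Log2 fold changes were 0.65 ± 0.17 (SE) for mt-Co1, 0.63 ± 0.13 for mt-Co2 and 0.59 ± 0.12 for mt-Co3, and the latter 2 were called.

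Their RNA did not follow. The RNA level of mt-Co1 was 6239, 5223 and 6239 CPM in WT and 5744, 5933 and 5092 in LOF, a log2 difference of -0.08 ± 0.08 (SE). That of mt-Co2 was 2218, 1678 and 2128 in WT and 1816, 1921 and 1638 in LOF (-0.16 ± 0.10). For mt-Co3 the RNA values were 2581, 2108 and 2627 and 2204, 2369 and 2005 (-0.15 ± 0.09). The genotypes overlapped for each, WT replicate 2 was the lowest WT embryo, and LOF replicate 3, the highest in RPF, was the lowest in RNA.

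The mitochondrial part of ATP synthase consists of mt-Atp6, the membrane subunit of the proton channel, and mt-Atp8, a small stator protein read from the same mRNA. RPF of mt-Atp6 measured 408, 299.9 and 279 CPM in WT and 432, 414 and 599.5 in LOF. The mt-Atp8 values were 63.4, 53.5 and 53.8 in WT and 64.1, 95.5 and 109 in LOF. WT replicate 1 reached almost the lowest LOF embryo for both genes. Log2 fold changes were 0.55 ± 0.16 (SE) and 0.66 ± 0.16, of which that of mt-Atp8 was called, and the RNA differences were -0.14 ± 0.11 and -0.25 ± 0.17.

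Cytochrome b, the only mitochondrial product in complex III and the subunit that oxidises ubiquinol, gave RPF levels for mt-Cytb of 237, 193 and 164 CPM in WT and 260.2, 286 and 398 in LOF. The genotypes did not overlap, and the log2 fold change was 0.67 ± 0.16 (SE), which was called. RNA of mt-Cytb overlapped, at 1411, 1052 and 1282 in WT and 1175, 1325 and 1056 in LOF (-0.07 ± 0.11).

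Complex I takes 7 mitochondrial products, all in its proton-pumping membrane arm. RPF of mt-Nd4 stood at 236, 175 and 165 CPM in WT and 284, 270.0 and 372 in LOF, and RPF of mt-Nd5 at 328, 228 and 213 and 365, 357 and 488. These are the large antiporter-like subunits, and their log2 fold changes of 0.69 ± 0.14 (SE) and 0.65 ± 0.16 were both called. The small mt-Nd4l, encoded on the same mRNA as mt-Nd4, was also called, with 94.0, 70.9 and 77.2 in WT, 103, 111 and 142 in LOF and a log2 fold change of 0.56 ± 0.13. RNA of these 3 differed least between genotypes among the 13, by -0.04 ± 0.10, -0.01 ± 0.10 and 0.00 ± 0.12.

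The 4 remaining complex I mRNAs were not called in RPF. For mt-Nd1 the levels were 134, 102 and 85.8 CPM in WT and 138, 155 and 212 in LOF, a log2 fold change of 0.65 ± 0.17 (SE), without overlap. For mt-Nd2, another antiporter-like subunit, they were 175, 118 and 115 and 183, 171 and 260.1 (0.59 ± 0.18), and LOF replicate 2 fell just under WT replicate 1. RPF of mt-Nd3, a small subunit at the junction with the hydrophilic arm, measured 101, 85.0 and 65.4 and 83.1, 130.3 and 130.1 (0.45 ± 0.18), and LOF replicate 1 lay inside the WT range. The RNA of mt-Nd3 had the largest negative difference of the 13, -0.35 ± 0.13, with WT values of 461, 379 and 481 and LOF values of 362, 396 and 271 that overlapped.

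The exception in size was mt-Nd6, the member encoded on the opposite strand. Its RPF level was 109, 105 and 76.8 CPM in WT and 82.1, 91.5 and 147 in LOF, so that 2 LOF embryos lay within the WT range and LOF replicate 3 above it. The log2 fold change was 0.15 ± 0.20 (SE) in RPF and -0.19 ± 0.08 in RNA, with RNA levels of 146, 135 and 138 and 132, 127 and 105. Whether its change differed from those of the other 12 was not tested. The last bases of mt-Nd6 lie opposite those of mt-Nd5, and the use of strand in the counting is not given in the sources used here.

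**Figure D2:**
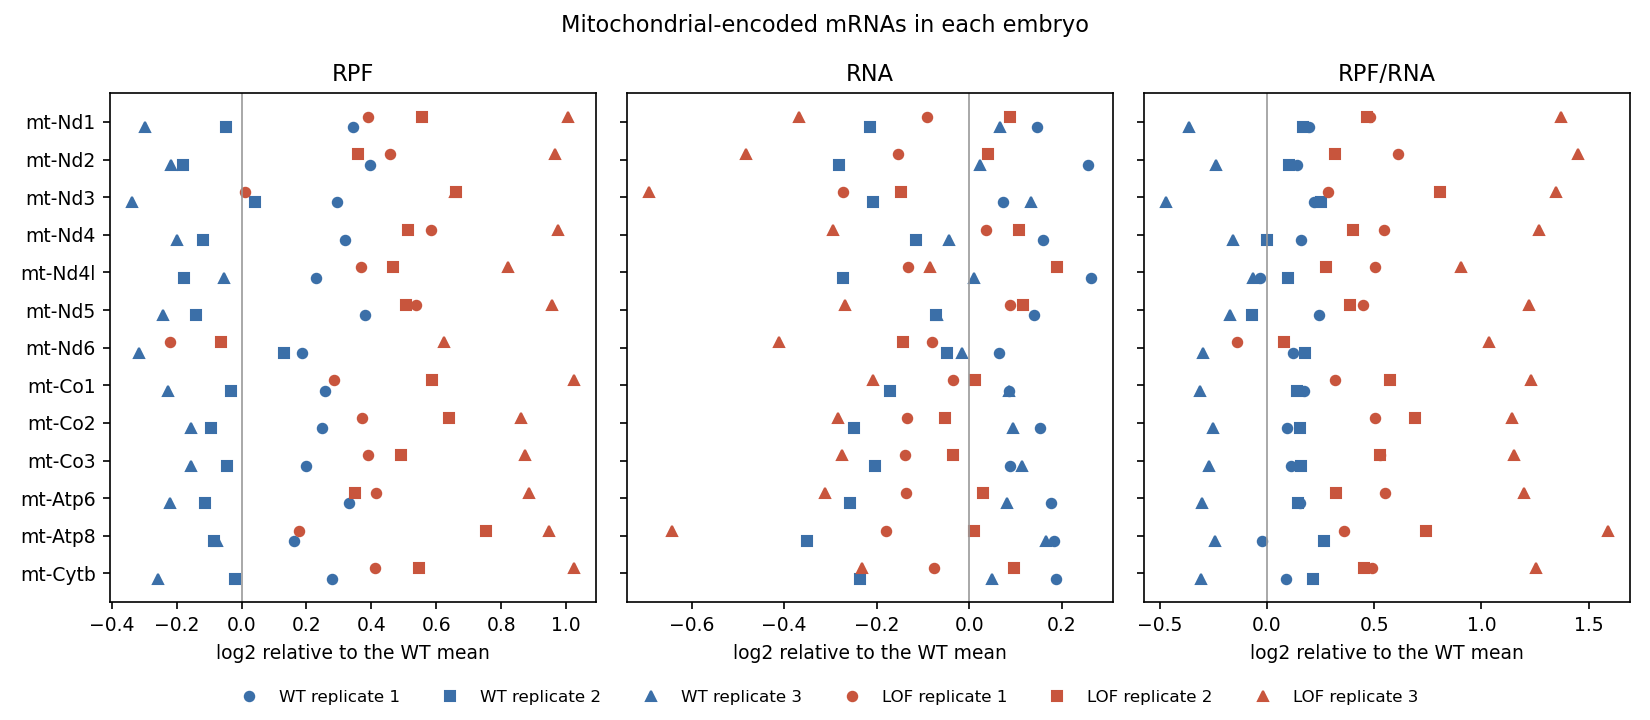
Level of each mitochondrial-encoded mRNA in each embryo in RPF, RNA and RPF/RNA, as log2 relative to the mean of the 3 WT embryos (blue, WT; red, LOF; circle, square and triangle, replicates 1, 2 and 3). LOF embryos sit to the right of WT embryos in RPF for 10 of 13 mRNAs and in RPF/RNA for 12 of 13, with LOF replicate 3 farthest, and they overlap in RNA for all but mt-Nd6.

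In RNA, 12 of the 13 mitochondrial mRNAs had a lower mean in LOF, the median log2 difference was -0.14 and the range -0.35 to 0.0016. The median was -0.055 without WT replicate 1, -0.062 without LOF replicate 3 and -0.216 without LOF replicate 2, and lay between these values without any other embryo. At an FDR below 0.1, 0 of 13 were called in edgeR's test, where 5.02% of all transcripts were called in either direction, and 2 of 13 (mt-Nd3 and mt-Nd6) had an unadjusted p below 0.05, as did 17% of all transcripts. In 1 of 13, mt-Nd6, all LOF embryos lay below all WT embryos, against 12.6% of all transcripts.

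The ratio of RPF to RNA was higher in LOF for all 13, with log2 differences from 0.35 (mt-Nd6) to 0.92 (mt-Atp8) and a median of 0.74, against 0.0066 over all transcripts. The fit held no term for the embryo, so RPF and RNA of the same embryo were not paired in it. For mt-Nd6 the embryo values were 0.12, 0.18 and -0.30 in WT and -0.14, 0.08 and 1.03 in LOF, so only LOF replicate 3 was higher. At an FDR below 0.1 none of the 13 was called in edgeR's test of the interaction, as for the whole table (0 of 12576, 0%). DESeq2 called mt-Co2 and mt-Co3, each at an adjusted p of 0.0898, where 4 of 12576 transcripts were called. At an unadjusted p below 0.05, 12 of the 13 were higher in LOF, where 2.48% of all transcripts were. In 12 of 13 all LOF embryos lay above all WT embryos, against 6.87% of all transcripts, and the exception was mt-Nd6. The contrast is the one that led to the choice of these mRNAs, and nothing is read from these counts beyond the description.

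Embryos of 1 genotype differed widely in this ratio. The median over the 13 mRNAs, as log2 relative to the WT mean, was 0.14, 0.16 and -0.27 in WT replicates 1 to 3 and 0.49, 0.45 and 1.23 in LOF replicates 1 to 3. For RPF alone it was 0.28, -0.08 and -0.22 in WT and 0.39, 0.51 and 0.95 in LOF, and for RNA 0.15, -0.21 and 0.07 and -0.13, 0.03 and -0.29. LOF replicate 3 combined the highest RPF with the lowest RNA, and without it the median RPF/RNA difference was 0.45 and the median RPF difference 0.43. Leaving out 1 embryo moved the calls of the whole table as well. The number of the 13 called higher in RPF was 2, 0 and 0 without WT replicates 1, 2 and 3, where 0.0795%, 0.0318% and 0.533% of all transcripts were, and 9, 11 and 0 without LOF replicates 1, 2 and 3, where 0.891%, 5.07% and 0.207% were. Taken singly, LOF replicates 1 and 2 each exceeded all 3 WT embryos in RPF for 11 of 13 mRNAs and in RPF/RNA for 12 of 13. Over all transcripts that held for 35.9% and 31.3% in RPF and 35.5% and 28.1% in RPF/RNA, and over the 42 nuclear members for 26 and 13 in RPF and 27 and 10 in RPF/RNA.

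Other measures moved with the embryos. The part of library size in the result was not tested, and the Y-linked level was entered only as a covariate. The highest RPF level within each genotype belonged to WT replicate 1 and LOF replicate 3, which also had the smallest RNA libraries (9132521 and 9570935 counts, against 20169888 to 26561843 in the others) and the largest RPF libraries. Summed Y-linked genes stood at 177 to 189 CPM of RNA in WT but at 8.72, 173 and 2.57 in LOF replicates 1 to 3. This level was thus high in all WT embryos but only in replicate 2 of LOF, and is partly confounded with genotype. The paper did not determine the sex of its embryos. LOF replicate 2, whose Y-linked level was near that of WT, had median log2 differences of 0.51 in RPF and 0.45 in RPF/RNA. With the Y-linked level as a covariate the medians over the 13 were 0.42 in RPF, 0.05 in RNA and 0.30 in RPF/RNA, and 0 of 13 were called higher in RPF, where 0.143% of all transcripts were.

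Low GC content is another property that the 13 share, so the nuclear transcripts closest to them in composition were set beside them. Among 163 tested nuclear transcripts whose coding sequence held under 40% G and C, the median log2 difference was 0.01 in RPF, -0.07 in RNA and 0.08 in RPF/RNA, with quartiles of -0.04 and 0.28 in the latter. In LOF replicate 3 this class stood at -0.19 in RNA and 0.19 in RPF/RNA relative to the WT mean, against -0.29 and 1.23 for the mitochondrial mRNAs. After a correction for GC content the mitochondrial medians were 0.61 in RPF and 0.67 in RPF/RNA, and 4 of the 13 were called higher in RPF, where 1.03% of all transcripts were.

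**Figure D3:**
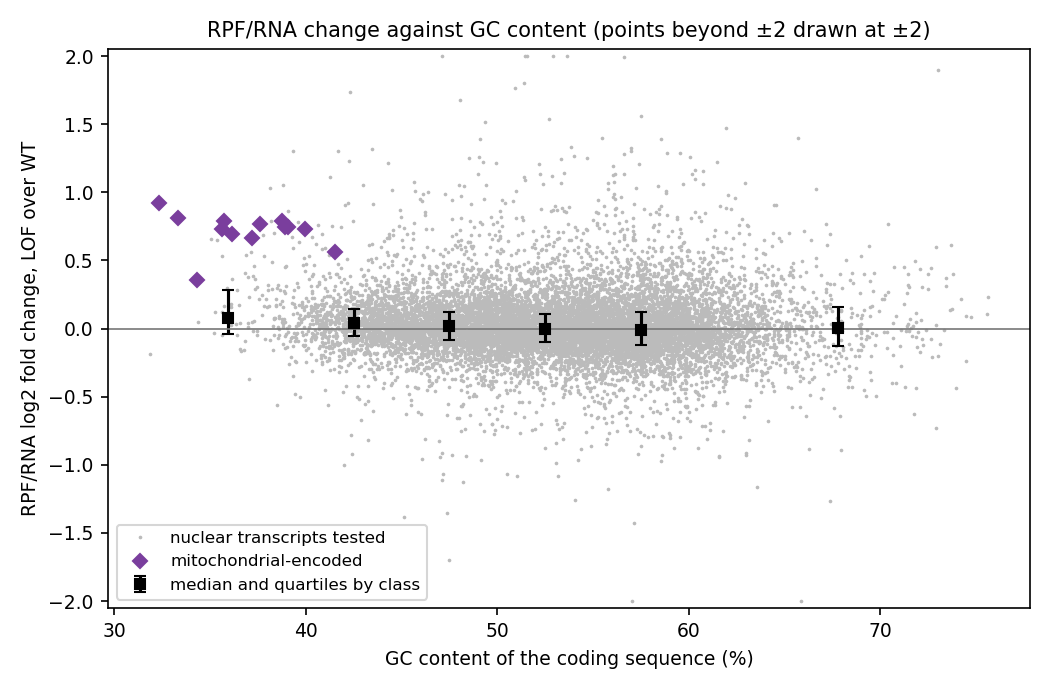
RPF/RNA log2 fold change of LOF over WT against GC content of the coding sequence (%) for all tested transcripts, with the median and quartiles of nuclear transcripts by GC class (black) and the mitochondrial-encoded mRNAs (purple). The class under 40% has a median of 0.08, and the 13 mitochondrial mRNAs lie between 0.35 and 0.92.

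The nuclear-encoded members lay close to the whole table. Over the 42 tested, the median log2 difference was 0.02 in RPF, -0.02 in RNA and 0.03 in RPF/RNA, with ranges of -0.23 to 0.40, -0.23 to 0.13 and -0.19 to 0.40. In edgeR's test 1 of 42 was called higher in RPF (1.05% of all transcripts were), 0 lower, and 0 in RNA and RPF/RNA, where an unadjusted p below 0.05 was found for 5 in RPF, 4 in RNA and 1 in RPF/RNA, beside 13.7%, 17% and 4.44% of all transcripts. In 6 of 42 all LOF embryos lay above all WT embryos in RPF, against the 9.98% of all transcripts given above, and in 2 of 42 all lay below, against 9.4%. Quartiles of the RPF difference were -0.03 and 0.06, narrower than the -0.12 and 0.13 of the whole table.

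The member called was Cox8a, a small structural subunit of complex IV. Its RPF level was 63.1, 55.9 and 57.4 CPM in WT and 81.9, 81.9 and 69.8 in LOF, with no overlap, a log2 fold change of 0.40 ± 0.09 (SE) and an adjusted p of 0.0704 in edgeR's test. RNA of Cox8a was 147, 128 and 157 in WT and 139.7, 144 and 149.8 in LOF, a difference of 0.01 ± 0.07, and the RPF/RNA difference was 0.39 ± 0.12. The Cox8a call was lost in each of the fits without 1 embryo except those without LOF replicate 2 or LOF replicate 3, with adjusted p from 0.0388 to 0.329 over the 6, and it was lost with the Y-linked covariate (adjusted p = 0.133).

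Some nuclear members that missed the threshold still had separated embryos. Ndufa5, an accessory subunit of the hydrophilic arm of complex I, measured 85.8, 83.5 and 86.3 CPM in WT RPF and 74.0, 73.8 and 70.0 in LOF, a log2 difference of -0.23 ± 0.07 (adjusted p = 0.164). Its RNA differed by as much, at 33.3, 34.6 and 35.1 and 27.96, 30.2 and 30.1 (-0.23 ± 0.07, adjusted p = 0.142), so that RPF/RNA differed by -0.00399 ± 0.085. Cyc1, the cytochrome c1 of complex III, had RPF levels of 154, 150.2 and 149 in WT and 173, 168 and 171 in LOF (0.18 ± 0.06, adjusted p = 0.224). The wholly nuclear complex II had log2 RPF differences between 0.01 and 0.04 for Sdha, Sdhb, Sdhc and Sdhd, its flavoprotein, its iron-sulphur protein and its membrane anchors.

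**Figure D4:**
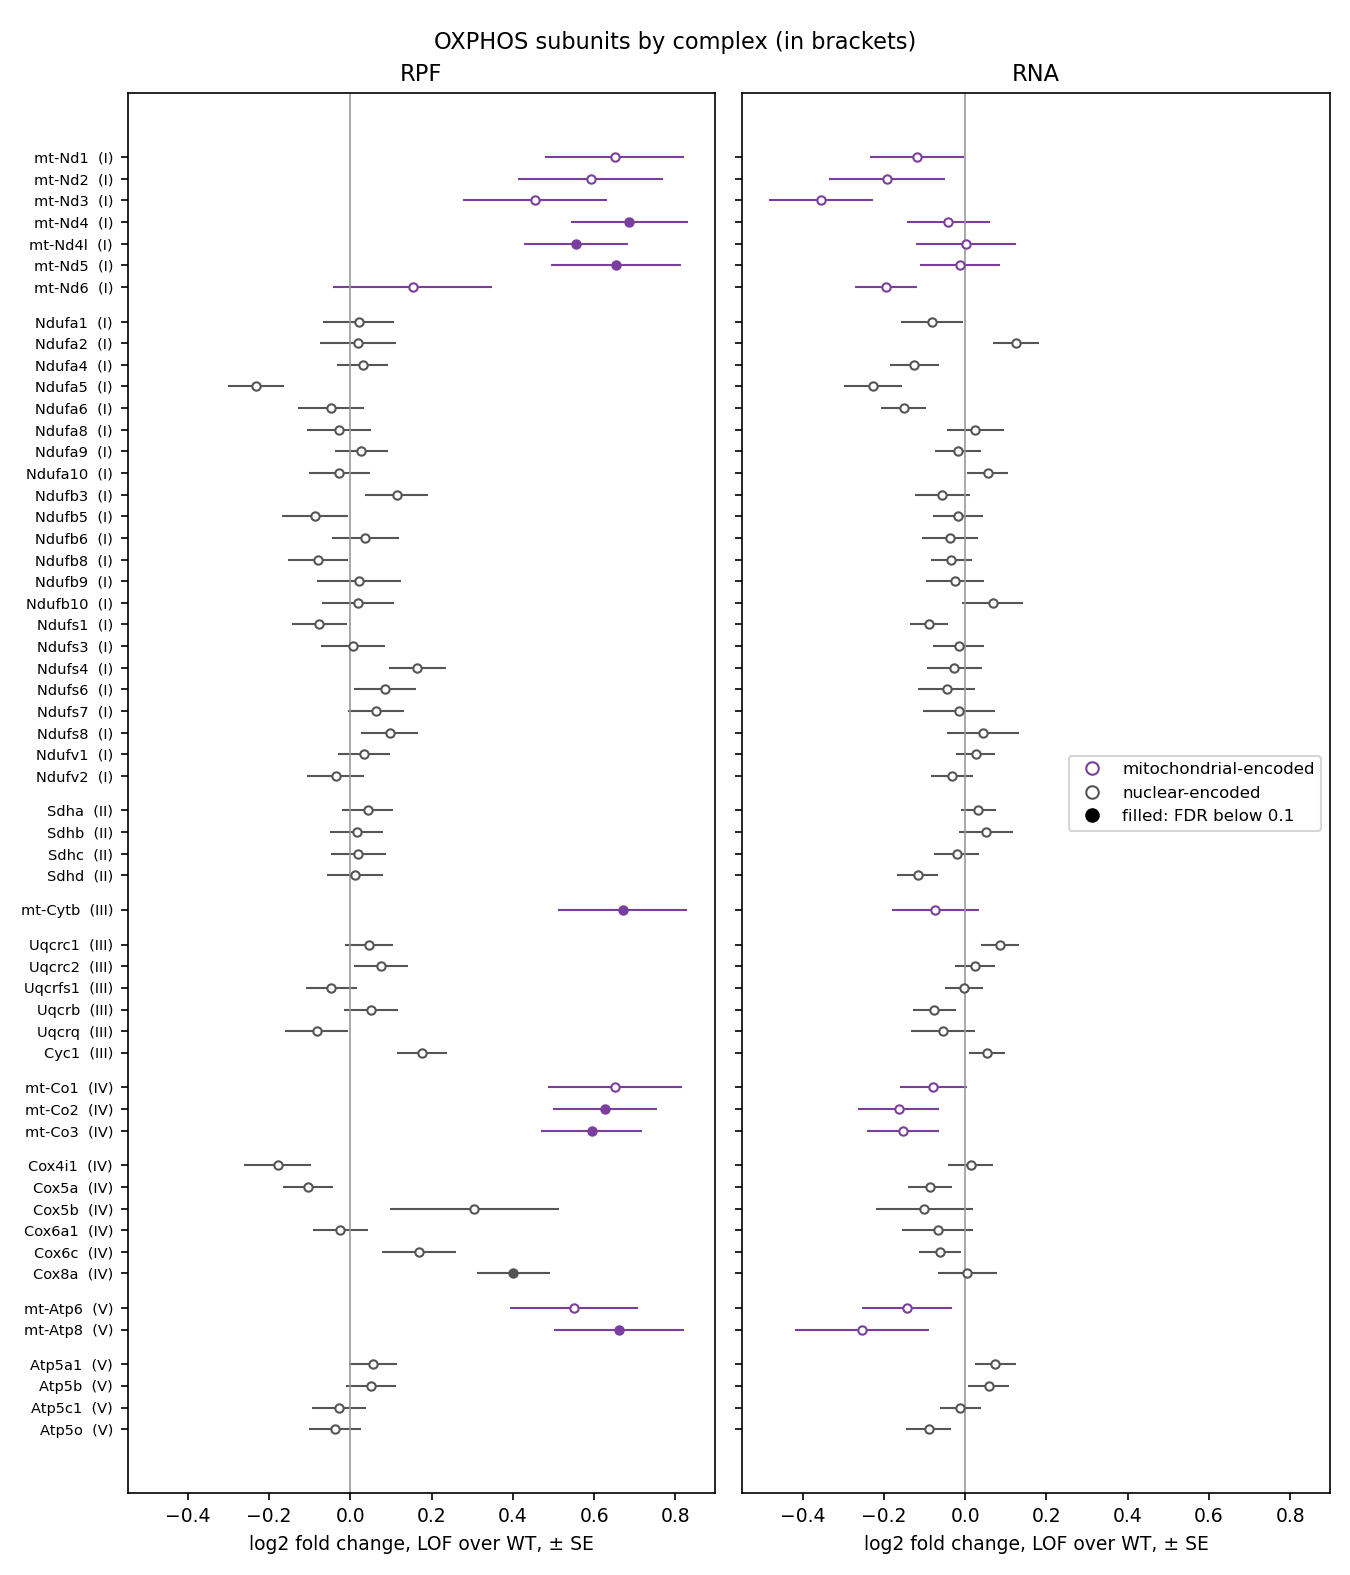
Log2 fold change of LOF over WT (± SE, edgeR) in RPF (left) and RNA (right) for the 55 tested members, grouped by complex (I to V in brackets), mitochondrial-encoded in purple and nuclear-encoded in grey, filled where the FDR is below 0.1. In RPF the mitochondrial members lie between 0.15 and 0.69 and the nuclear members between -0.23 and 0.40, while in RNA both sets lie between -0.35 and 0.13.

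Within each complex that joins both sets, the mitochondrial mRNAs had a higher mean RPF level in LOF relative to their nuclear partners. The mean log2 RPF of mitochondrial minus nuclear subunits, relative to the WT mean, was 0.27, -0.02 and -0.24 in WT and 0.13, 0.50 and 0.92 in LOF for complex IV, where LOF replicate 1 lay inside the WT range. For complex I it was 0.30, -0.05 and -0.26 in WT and 0.25, 0.41 and 0.91 in LOF, again with LOF replicate 1 inside that range. In complex III the values were 0.27, 0.01 and -0.27 and 0.33, 0.53 and 1.01, and in complex V 0.26, -0.10 and -0.17 and 0.29, 0.49 and 0.95, with no overlap in either. The SD between WT embryos was 0.23 to 0.28 in these 4 complexes, and that between LOF embryos 0.34 to 0.39. The LOF means were 0.52, 0.62, 0.52 and 0.58 in complexes I, III, IV and V. Without 1 embryo they ran from 0.330 to 0.675, 0.430 to 0.773, 0.317 to 0.710 and 0.391 to 0.722.

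The same difference in RPF/RNA was 0.26, 0.36 and 1.28 in LOF for complex I, 0.38, 0.47 and 1.24 for complex III, 0.16, 0.49 and 1.136 for complex IV and 0.42, 0.49 and 1.47 for complex V, in replicates 1 to 3. The highest WT value in those complexes was 0.15, 0.19, 0.19 and 0.13, which LOF replicate 1 did not exceed in complex IV. Without 1 embryo the LOF means in RPF/RNA ran from 0.312 to 0.821 in complex I, 0.427 to 0.858 in III, 0.324 to 0.814 in IV and 0.452 to 0.977 in V. In RNA the LOF means of this difference were -0.11, -0.08, -0.08 and -0.21 for complexes I, III, IV and V, beside SDs between WT embryos of 0.13, 0.18, 0.08 and 0.20. Leaving out 1 embryo moved these means to between -0.191 and 0.018 in complex I, -0.166 and 0.015 in III, -0.120 and -0.0066 in IV and -0.326 and -0.061 in V. The sign turned without LOF replicate 3 in complexes I and III and without WT replicate 1 in III.

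The levels per length in WT embryos alone did not enter the choice of members, and the 2 genomes lay far apart in RNA density but not in RPF density. Densities are counts per base of counted coding sequence (RPF) or of transcript (RNA), scaled to CPM over all transcripts of a library. The median RNA density of the 13 mitochondrial mRNAs was 2803 to 3378 over the 3 WT embryos, against 197 to 199 for the 42 tested nuclear members. Their median RPF density, 240.0 to 376, was close to the 281 to 293 of the nuclear members.

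As a result the ratio of RPF to RNA density, with RNA per base of transcript, had a median of 0.0875 to 0.114 for the mitochondrial and 1.13 to 1.17 for the nuclear members in WT, and of 0.692 to 0.718 over all tested transcripts. In each WT embryo only 1 of the 42 nuclear members, Cox5b, lay below the highest mitochondrial ratio. In LOF replicates 1 to 3 that number was 2, 1 and 4, where the mitochondrial ratios were higher. Scaling RNA by coding length instead of transcript length gave medians of 0.237 and 1.70 in WT, and then 2, 3 and 2 nuclear members in WT and 5, 3 and 23 in LOF lay below the highest mitochondrial ratio. Footprints were selected at one range of sizes, and the table holds neither their lengths nor their reading frame, so a fragment held by a mitochondrial ribosome and one protected otherwise cannot be told apart.

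**Figure D5:**
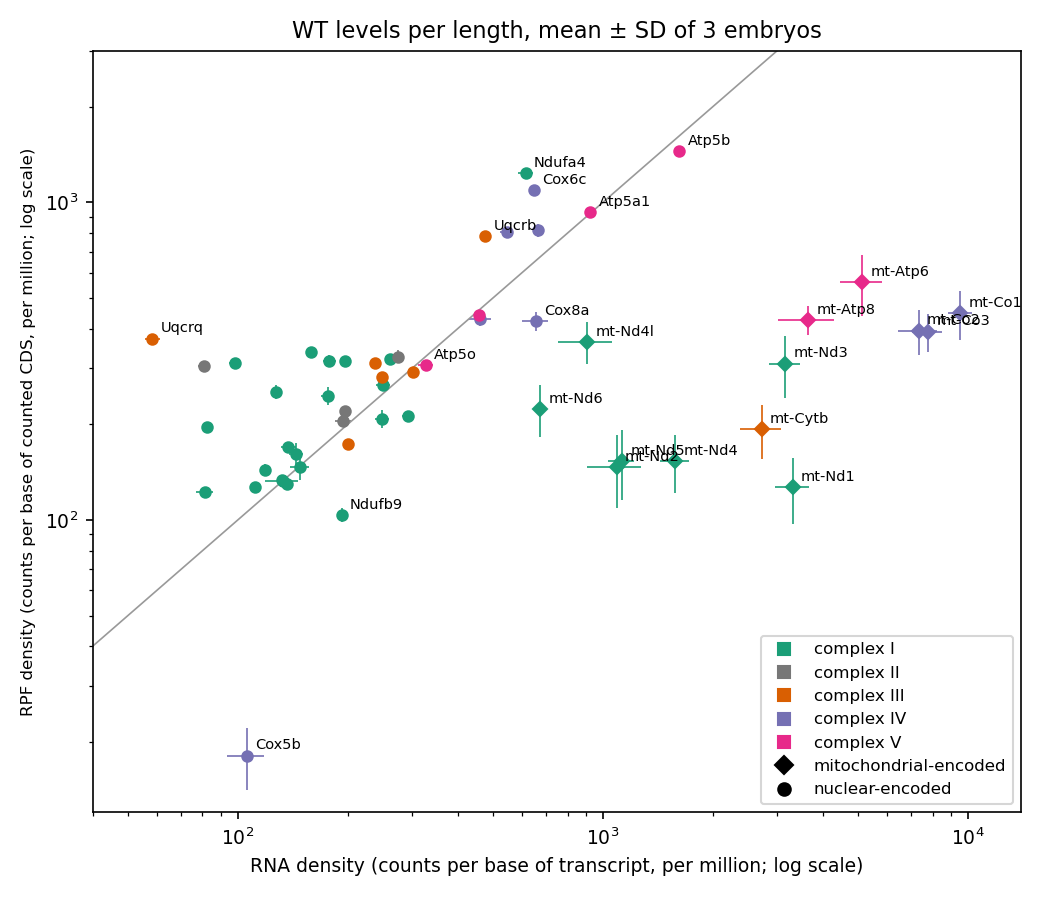
RPF density against RNA density in WT embryos (both log axes, mean ± SD of 3 embryos) for the members with RPF counts, coloured by complex, with the line of equal density. Mitochondrial-encoded mRNAs (diamonds) lie to the right of the line, mt-Nd1 and mt-Co1 farthest, while most nuclear members (circles) lie about it. Cox5b lies far below it, and Uqcrq, Sdhc and Ndufa5 lie well above.

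Among the mitochondrial mRNAs the RNA densities in WT ran from 9533 ± 723 for mt-Co1 through 7762 ± 728 for mt-Co3 and 7323 ± 901 for mt-Co2 down to 674 ± 23.5 for mt-Nd6 (mean ± SD, n = 3). Next below complex IV came mt-Atp6 at 5127 ± 676 and mt-Atp8 at 3651 ± 637. The group of mt-Nd1, mt-Nd3 and mt-Cytb, at 3307 ± 354, 3156 ± 309.5 and 2722 ± 346, overlapped within their SD, as did mt-Nd5 (1127 ± 93.0), mt-Nd2 (1089.7 ± 183) and mt-Nd4l (905 ± 153). The mRNA of mt-Nd4 stood between these groups at 1579.8 ± 144. Other neighbours in this order that overlapped within their SD were mt-Co3 with mt-Co2, and mt-Atp8 with mt-Nd1. Of the overlapping neighbours, mt-Co3 over mt-Co2, mt-Nd3 over mt-Cytb and mt-Nd2 over mt-Nd4l kept their order in every WT embryo.

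The order in RPF density was different. The highest was mt-Atp6 at 562 ± 122, followed within their SD by mt-Co1 at 447 ± 78.7, mt-Atp8 at 426 ± 44.5, mt-Co2 at 395 ± 63.8, mt-Co3 at 392 ± 52.4 and mt-Nd4l at 364 ± 55.1. Next came mt-Nd3 (310.3 ± 68.1), mt-Nd6 (224 ± 41.4) and mt-Cytb (193 ± 37.3), and last mt-Nd5 (154 ± 38.3), mt-Nd4 (153 ± 31.7), mt-Nd2 (147 ± 37.8) and mt-Nd1 (127 ± 29.6). Every neighbour in this order overlapped the next within its SD. The RPF densities thus spanned 127 to 562, and the RNA densities 674 to 9533.

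The ratio of RPF to RNA density in WT was lowest for mt-Nd1, 0.0383 ± 0.00751, and then for mt-Co1, 0.0470 ± 0.00791, mt-Co3, 0.0507 ± 0.00723, and mt-Co2, 0.0541 ± 0.00711 (mean ± SD, n = 3). It was highest for mt-Nd4l, 0.403 ± 0.0145, and mt-Nd6, 0.331 ± 0.0526, and between 0.0710 and 0.135 for the other 7. With RNA per base of transcript, 0.143% of tested transcripts lay below mt-Nd1 and 23.7% below mt-Nd4l, and with RNA per base of coding sequence 1.32% and 55.7% did. In LOF the ratio was 0.0673 ± 0.0280 for mt-Nd1, 0.0786 ± 0.0293 for mt-Co1 and 0.599 ± 0.149 for mt-Nd4l.

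Between frames on a shared mRNA the RNA densities themselves differed, so the RPF ratios are given beside those in RNA. RPF density of mt-Nd4l was 2.39 ± 0.217 times that of mt-Nd4 in WT and 2.17 ± 0.130 times in LOF, while its RNA density was 0.570 ± 0.0535 and 0.588 ± 0.0771 of that of mt-Nd4 (SD, n = 3). For mt-Atp6 over mt-Atp8 the RPF ratio was 1.31 ± 0.146 in WT and 1.26 ± 0.276 in LOF, and the RNA ratio 1.41 ± 0.0868 and 1.55 ± 0.193. For both pairs the embryos of the genotypes overlapped. Densities were not corrected for fragments that run past the ends of short entries such as mt-Atp8 and mt-Nd4l.

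Between the genomes, mt-Co1 carried 0.551 ± 0.121 times the RPF density of Cox4i1, a nuclear subunit present in a single copy in the same complex, in WT and 0.992 ± 0.356 times in LOF (SD, n = 3). Against Cox5a, likewise a single-copy subunit, the ratio was 0.554 ± 0.103 in WT and 0.941 ± 0.287 in LOF. In RNA the ratios were 14.3 ± 0.936 and 13.5 ± 1.83 for Cox4i1 and 17.5 ± 0.646 and 17.6 ± 1.05 for Cox5a. These 2 partners were chosen after their values were seen, and the 6 tested nuclear members of complex IV ranged in RPF density from 18.1 for Cox5b to 1089.5 for Cox6c. They had the lowest RPF log2 differences among the 6, -0.18 for Cox4i1 and -0.10 for Cox5a. Part of the change in these ratios thus lies in the partners. The others differed by -0.02 (Cox6a1), 0.17 (Cox6c), 0.31 (Cox5b) and 0.40 (Cox8a). Among the 3 mitochondrial core subunits of complex IV the RPF densities in WT differed by at most a ratio of 1.138 ± 0.0505 (mt-Co1 over mt-Co3), and LOF gave 1.18 ± 0.107.

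In ATP synthase, Atp5b and Atp5a1, the beta and alpha subunits of the catalytic head, stood at 1447 ± 16.9 and 933 ± 5.63 in WT, Atp5c1, the single gamma subunit of the rotor, at 442 ± 14.1 and Atp5o, the stalk subunit also called OSCP, at 307 ± 4.66 (SD, n = 3). Alpha and beta are present in several copies for each gamma, and their RPF densities were 2.11 ± 0.0782 and 3.28 ± 0.0690 times that of Atp5c1 in WT and 2.24 ± 0.188 and 3.47 ± 0.327 times in LOF. Their RNA densities stood in much the same proportion, 2.01 ± 0.0275 and 3.54 ± 0.0820 times that of Atp5c1 in WT.

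In complex I the 22 nuclear members had a median RPF density of 202 in WT. They ran from Ndufb9, an accessory subunit of the membrane arm, at 103 ± 5.25 to Ndufa4 at 1238 ± 44.1, a protein later placed in complex IV. Of the 28-base stretches in the counted coding sequence of Ndufb9, 38.9% also occur in the transcript Gm49356, which held 0 RPF and 2 RNA counts in all libraries, so the Ndufb9 level is uncertain. In complex II the range was narrow, from Sdhb at 205 ± 4.85 to Sdhd at 327 ± 15.8. Complex III ran from Cyc1 at 174 ± 3.79 to Uqcrb, a small subunit, at 781 ± 24.1.

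Complex IV held the widest range among the nuclear members. Cox6c, a small structural subunit, had an RPF density of 1089.5 ± 6.13 in WT, and Cox5b, a zinc-binding subunit on the matrix side, of only 18.1 ± 3.98, from 52, 43 and 68 RPF counts in replicates 1 to 3. Cox7c gave 0 RPF counts in all 6 libraries, which at 3 counts allows up to 0.276 to 0.426 CPM, while its RNA counts ran from 424 to 1176. Of the 28-base stretches in its counted coding sequence, 72.5% also occur in the transcript Gm10012, which held 0 RPF and 147 RNA counts in all, and of the members besides Cox7c and Ndufb9 only Ndufa4 shared any, 0.629%. Cox5b shared none with another transcript of the table, and matches elsewhere in the genome were not examined. The transcripts Gm49356 and Gm10012 were named after their values were seen.

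Other genes of the pathway and of mitochondrial gene expression are given by counts beside the whole table, where 2.19% of transcripts were called in RPF and 5.02% in RNA in either direction, so that a count of 0 in lists of this size lies near the background. None of 34 tested further nuclear OXPHOS subunits, of 44 assembly factors, of 20 mitochondrial translation factors and of 35 matrix and import proteins was called in RPF or RNA in edgeR's test, with median log2 RPF differences of 0.02, 0.06, 0.05 and -0.01. At an unadjusted p below 0.05 in that test, 1, 4, 3 and 1 of them differed in RPF and 2, 4, 4 and 2 in RNA, where 13.7% and 17% of all transcripts did. Of 29 factors for mitochondrial transcription and RNA, Tbrg4, a mitochondrial RNA-binding protein, was called in RNA, 0.19 ± 0.05 (adjusted p = 0.0837). Of 10 regulators of mitochondrial biogenesis, Pprc1, a coactivator related to PGC-1, was called in RNA, 0.30 ± 0.08 (adjusted p = 0.0834). Of 5 tested tissue-restricted isoforms, Cox6b2, the testis form of a complex IV subunit, was called higher in RPF, 1.31 ± 0.25 (adjusted p = 0.0501), and RNA, 0.87 ± 0.22 (adjusted p = 0.0759). No list had a member called in RPF/RNA.

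Cell type markers moved with genotype, and their part in the mitochondrial values was not tested. Over all transcripts, 1.05% were called higher and 1.15% lower in RPF, and 1.77% higher and 3.25% lower in RNA. Visceral endoderm markers, 14 of 16 called lower in RPF and 16 of 16 in RNA, summed to 4198 to 5247 in WT and 1549 to 3139.9 in LOF (CPM of RNA). Primitive erythroid markers, 5 of 11 called higher in RPF and 2 in RNA, summed to 429.9 to 1772 in WT and 1601 to 2668 in LOF, and heart markers, 6 of 10 called higher in RPF and 7 in RNA, to 753 to 817 in WT and 937 to 989 in LOF. Presomitic mesoderm and tailbud markers, 2 of 10 called lower in RPF and 0 in RNA, summed to 353 to 372 in WT and 324 to 342 in LOF, and neural plate markers, 0 of 8 called in RPF and 1 lower in RNA, to 271 to 280.0 in WT and 232 to 270.5 in LOF. None of these markers was at 0 across the RNA libraries. RPF of Rpl10a itself stood at 1562 to 1679 CPM in WT and 939.7 to 1125 in LOF, and its RNA at 789 to 870 in WT and 695 to 753 in LOF, without overlap in either (log2 differences of -0.64 and -0.23, adjusted p of 0.00689 and 0.0678 in edgeR's test).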

How the data were processed

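Gene counts were used as deposited, whole numbers for 22467 transcripts in 12 libraries, 1 RPF and 1 RNA library for each of 6 embryos. Embryos were dissected and lysed in cycloheximide. The authors trimmed reads with cutadapt, aligned them with Bowtie2 to the GRCm38/mm10 transcriptome, removed duplicates with UMI-tools, and counted RPF by A site in coding sequences without the first 15 and last 5 codons and RNA over whole transcripts. Here IDs were matched to GENCODE annotation of GRCm38. Transcripts above 0.75 CPM in at least 3 RPF libraries were fitted with edgeR 4.0.16 (quasi-likelihood test, TMM within RPF and within RNA, Benjamini-Hochberg adjustment over 12576 transcripts, FDR below 0.1), genotype in RPF and RNA and their interaction for RPF/RNA. SE is the fold change divided by the root of F. Log2 values per embryo used a prior count of 0.5. The fits were tested on simulated data.

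Members and lists were chosen with earlier results of these data known. In full were described the 13 mitochondrial members, nuclear members called in RPF, RNA or RPF/RNA in the edgeR fits to all embryos, and per complex the nuclear member of highest and lowest RPF density in WT. From other lists, called genes are named, at most 3 in each direction, and none of the cell type markers. Ndufa5, Cyc1, the complex II members and the Cox4i1, Cox5a and ATP synthase ratios were chosen after their values were seen. RPF and RNA of 1 embryo are paired by origin, and their deviations from the group means correlated (r from 0.161 to 0.373 across transcripts). Replicates are separate embryos. Alternatives were DESeq2 1.42.0, limma 3.58.1 (voom, also with 1 surrogate variable from sva 3.50.0), other size factors, other filters, a GC correction, a Y-linked covariate, a block, and leaving out each embryo.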

Additional observations from a re-analysis of the deposited data

How the results depend on the processing

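Of 133 comparisons outside the fits without 1 embryo, 119 kept their side of the threshold or moved by less than the spread between embryos, and 14 changed. The number of mitochondrial mRNAs called in RPF, 7 as reported, was 4 with the GC correction (1.03% of all transcripts were called higher), 4 with DESeq2 (1%), 0 with the Y-linked covariate (0.143%) and 11 with no filter (0.832% of 22122), and 0 to 11 when 1 embryo was left out. RPF/RNA called 2 with DESeq2 (4 of 12576 transcripts were), and 0 in each fit without 1 embryo. RNA called 1 (mt-Nd3) with no filter, where 755 of 22122 transcripts were called, and 0 to 1 without 1 embryo, where 138 to 594 of 12576 were. Nuclear members called in RPF were 0 with the Y-linked covariate (22 of 12576 transcripts were) and 0 to 4 without 1 embryo. The 4 were called without LOF replicate 2 (Cox8a and Cyc1 higher, Ndufa5 and Cox4i1 lower), where 1449 of 12576 transcripts were. In RNA 1 (Ndufa5) was called with limma-voom, where 708 of 12576 transcripts were, and with 1 surrogate variable added, where 619 were. With the Y-linked covariate the mitochondrial median moved to 0.048 in RNA and 0.30 in RPF/RNA. Without 1 embryo the nuclear RPF median ran from -0.019 to 0.049, the mitochondrial median from 0.43 to 0.76 in RPF, from -0.216 to -0.055 in RNA and from 0.45 to 0.86 in RPF/RNA. RNA per coding length gave density ratios of 0.237 and 1.70. The cause of these changes was not tested. Over the whole table RPF called 276 transcripts, 446 with limma-voom and 1 surrogate variable, 22 with the Y-linked covariate and 4 to 1449 without 1 embryo. RNA called 631, 35 with the Y-linked covariate, and 138 at the least without 1 embryo (WT replicate 1). RPF/RNA called 4 with DESeq2 and 26 without LOF replicate 2.

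A replicate block by number called 11 mitochondrial mRNAs higher in RPF, where 1.11% of all transcripts were, but equal numbers in WT and LOF name different embryos, with deviations correlated at -0.083 to 0.012 in RPF and -0.097 to 0.088 in RNA. Of 6 samples, 0 in RPF and 2 in RNA correlated best with their own number. The embryo block, which pairs RPF with RNA, left RPF/RNA at 0 called, at a lowest adjusted p of 0.196 in edgeR's test, and changed no other call. Without mt-Atp6 and mt-Atp8 complex V has no mitochondrial member, so that ratio was not computed.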
